A study of Mus musculus with 3 samples.

Results

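The apoptotic bodies (ABs) of preosteoclasts were compared with the ABs of bone marrow macrophages gene by gene, with 1 library on each side. The members were the protein-coding genes of GENCODE M21 (mouse genome GRCm38) with at least 50 reads over both libraries, counting the reads of every transcript of a gene in the deposited mRNA table. There were 10166 such genes among 12408 protein-coding genes with a listed transcript. The series holds 3 libraries, from ABs of macrophages (BMM-ABs), preosteoclasts (pOC-ABs) and mature osteoclasts (mOC-ABs), all grown from the marrow of C57BL/6 mice aged 11 weeks. Macrophages were raised from floating marrow cells with M-CSF at 50 ng/mL for 72 h. Preosteoclasts had then received RANKL at 100 ng/mL beside M-CSF at 30 ng/mL for 24 h, and mature osteoclasts the same for 72 h or longer. These culture conditions are those of the labels. The study's methods give a shorter time of M-CSF for the macrophages, M-CSF at 50 ng/mL beside RANKL, and a time beyond 72 h for mature osteoclasts. The labels give alendronate, 500 µM for 12 h, as the agent that induced ABs in each culture, whereas the study's methods name staurosporine, so that the agent shared by the libraries is not settled here. The mOC-ABs library enters no comparison and is given beside the others as a value.

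Macrophages and osteoclasts share one myeloid precursor. M-CSF, acting through the receptor Csf1r, keeps the precursor alive as a macrophage, and RANKL, acting through the receptor Tnfrsf11a, turns it towards the osteoclast, which fuses, acidifies the bone surface with a proton pump and digests the matrix with secreted proteases. ABs are membrane-bound fragments that dying cells shed, and they carry part of the RNA of the cell.

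Depth, as the sum of a library's reads, came to 9100082 mRNA-table reads for BMM-ABs, 7387317 for pOC-ABs and 7705592 for mOC-ABs. Each gene's reads were divided by this sum of its own library and are given as RPM, reads in 1000000. A log2 ratio is the base-2 logarithm of the pOC-ABs RPM over the BMM-ABs RPM, and its 95% interval is the exact binomial (Clopper-Pearson) interval given the reads of both libraries. The interval covers counting error only, because no molecular identifiers are stated for the reads and neither side had a replicate. No difference can therefore be set against a spread between samples, no p-value is given, and "higher" and "lower" describe these 2 libraries. Fewer cells of a type and less RNA per cell cannot be told apart. The labelled cell types were checked against fixed markers. In the order BMM-ABs, pOC-ABs, mOC-ABs the 6 macrophage markers together reached 5304, 2520 and 1628 RPM, and the 9 osteoclast markers with a row 345, 581 and 1870 RPM. Single genes weighed heavily in these sums. Lyz2 held 28844 of 48266 macrophage-marker reads in BMM-ABs, and Nfatc1 2566 of 3139 osteoclast-marker reads there and 2772 of 4292 in pOC-ABs. All 6 macrophage markers were lower in pOC-ABs, Cd68 the least (log2 ratio -0.17). The intervals of Ctsk, Ocstamp and Itgb3 held a log2 ratio of 0, and those of the other osteoclast markers with a row lay above 0. Several other macrophage genes were low in BMM-ABs, with 10 reads of Mrc1, 10 of Axl, 0 of Mertk and 78 of Apoe. Among markers of other cells, Ighm, the immunoglobulin mu heavy chain, had 2193, 669 and 158 reads in the same order while Cd79a of the B cell receptor had 2, 1 and 0, and Lck of T cells had 77, 76 and 62. The summed markers of stromal, endothelial and dendritic cells lay between 1.62 and 6.10 RPM in each library, and the markers chosen to define neutrophils, erythroid cells and mast cells are not analysed here. The part of these genes in the differences was not tested.

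Most genes were carried at similar levels. The ratio lay within 2-fold for 9455 of 10166 genes (93.0%), with a median log2 ratio of -0.050 and quartiles of -0.38 and 0.27. A ratio above 2 was reached by 223 genes (2.19%) and a ratio below 0.5 by 488 (4.8%), and these shares are the background against which each gene group is read. The whole interval lay above 2 for 76 genes (0.748%) and below 0.5 for 204 (2.01%). The log2 ratio itself was above 0 for 4683 of the 10166 genes and below 0 for 5483. Counts of list members on either side of 0 are read against these. The interval held a log2 ratio of 0 for 3920 genes, lay above 0 for 2694 and below it for 3552. The split between higher and lower genes depended on the scaling. Of the genes past 2-fold, 31.4% were higher in pOC-ABs here, 13.2% when the reads were scaled to the mRNA and lncRNA tables together, 46.8% when scaled to the genes compared and 42.1% with the upper quartile. Scaling to both tables lowered the median of all genes by 0.20 on the log2 scale. Just past the upper limit stood Rab8b with 659 and 1070 reads in BMM-ABs and pOC-ABs and a log2 ratio of 1.0, and just short of the lower limit stood Helz2 with 1958 and 795 reads and a log2 ratio of -1.0.

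**Figure D1:**
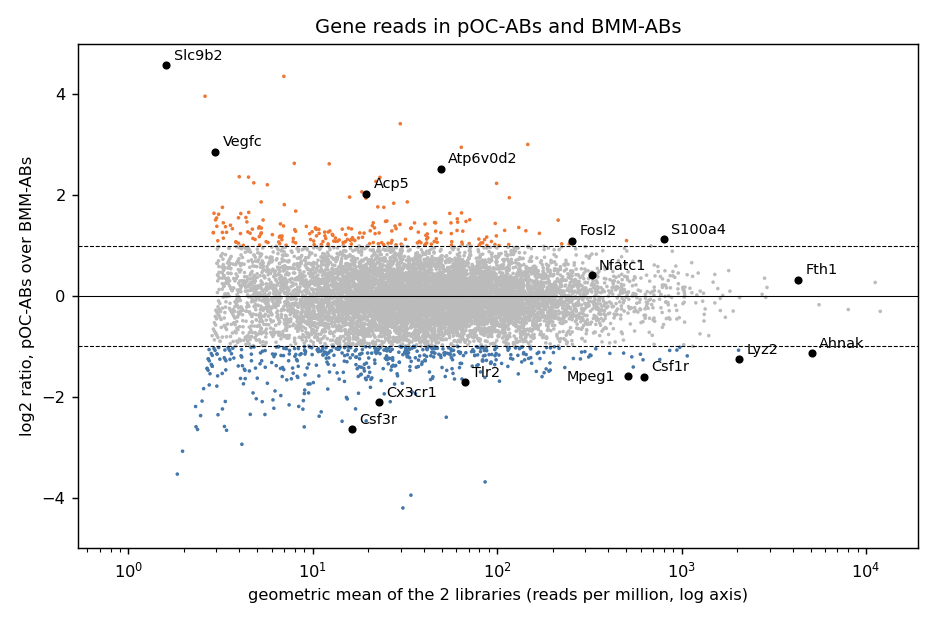
Log2 ratio of pOC-ABs over BMM-ABs (vertical axis) against the geometric mean of both libraries in RPM (horizontal log axis), 1 point a gene. Orange points lie above a ratio of 2 and blue points below 0.5, dashed lines mark those limits, and 15 genes at 0 reads in a library or beyond the axis are not drawn. Atp6v0d2, Acp5, Slc9b2 and Vegfc lie above the upper line and Csf3r, Cx3cr1, Tlr2, Csf1r, Mpeg1 and Lyz2 below the lower one.

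A small set of osteoclast genes was higher in pOC-ABs after 24 h of RANKL, while other defining genes of the osteoclast were not. Read counts are given below with BMM-ABs first, pOC-ABs second and mOC-ABs last, and values in parentheses after them are the log2 ratio of pOC-ABs over BMM-ABs and, where a range follows, its interval. Atp6v0d2, a subunit of the proton pump that osteoclasts need for fusion and acid secretion, had 187, 873 and 2338 reads, 20.5, 118 and 303 RPM. It was 5.75-fold higher in pOC-ABs than in BMM-ABs, with a log2 ratio of 2.52 and an interval of 2.29 to 2.76. Acp5, the tartrate-resistant acid phosphatase by which osteoclasts are stained, had 88, 292 and 2157 reads (2.03, 1.68 to 2.39). Slc9b2, a sodium-proton exchanger of the osteoclast, had 3, 58 and 269 reads, and with so few in BMM-ABs its log2 ratio of 4.57 spans 2.96 to 6.89. Slc9b2 was not on the list of osteoclast effectors and was named by its rank among the 15 highest genes. Of its reads, 3 in BMM-ABs and 18 in pOC-ABs lay on transcripts of the protein_coding type. All 3 genes were lowest in BMM-ABs and highest in mOC-ABs. Their loci held no reads of overlapping transcripts.

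Upstream sequences are shown for Acp5 and Slc9b2, which were higher in pOC-ABs, and for Csf3r, the G-CSF receptor, whose log2 ratio of -2.65 was the lowest among the chemokine and cytokine receptors. They come from the RefSeq promoter table (GRCm38.p6) and run from 250 bases before to 50 bases after a start site. For Acp5 the table lists 3 starts, and the one farthest upstream is shown, while the windows of the other two hold none of the motifs named next. Capitals mark any match on either strand to CACGTG (the E-box read by MITF), TGANTCA (AP-1), GAGGAAG (a core read by PU.1) or GGAAAA (a core read by NFAT), which 7.15%, 7.81%, 13.6% and 23.4% of the 32851 promoters in the table hold. The Acp5 window on chromosome 9 (minus strand, 22135697 to 22135996) holds the NFAT core once.
Acp5: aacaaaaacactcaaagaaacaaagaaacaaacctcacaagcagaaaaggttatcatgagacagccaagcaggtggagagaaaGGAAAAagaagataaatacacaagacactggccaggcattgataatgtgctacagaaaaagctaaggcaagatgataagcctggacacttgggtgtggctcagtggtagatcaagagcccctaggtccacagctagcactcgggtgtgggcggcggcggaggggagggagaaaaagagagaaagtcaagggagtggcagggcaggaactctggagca
The Slc9b2 window on chromosome 3 (plus strand, 135307450 to 135307749) holds the NFAT core once, on the opposite strand.
Slc9b2: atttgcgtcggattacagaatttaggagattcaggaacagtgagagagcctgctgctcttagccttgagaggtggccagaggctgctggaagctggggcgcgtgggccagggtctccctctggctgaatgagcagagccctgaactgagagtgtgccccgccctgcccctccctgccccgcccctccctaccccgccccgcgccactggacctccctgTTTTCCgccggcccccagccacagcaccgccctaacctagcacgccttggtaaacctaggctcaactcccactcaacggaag
The Csf3r window on chromosome 4 (plus strand, 126024409 to 126024708) holds the PU.1 core once.
Csf3r: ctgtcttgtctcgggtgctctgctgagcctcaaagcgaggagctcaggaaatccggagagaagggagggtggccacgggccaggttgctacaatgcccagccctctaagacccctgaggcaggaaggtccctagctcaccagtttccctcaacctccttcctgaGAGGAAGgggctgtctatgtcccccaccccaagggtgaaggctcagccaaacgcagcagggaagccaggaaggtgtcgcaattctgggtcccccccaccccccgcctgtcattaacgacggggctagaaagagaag
The windows of Cx3cr1, Tlr2 and Mpeg1, which were lower in pOC-ABs, held none of the 4 motifs. A match is a description of letters and not a site of binding.

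Of the 25 osteoclast effectors listed, 18 had at least 50 reads over both libraries, of which 2 had a ratio above 2 and 1 a ratio below 0.5. Their median log2 ratio was 0.22 against -0.050 for all genes, and it lay between 0.017 and 0.30 over the scalings. Other effectors were higher in pOC-ABs without reaching a ratio of 2. Dcstamp, a fusion receptor, had 72, 115 and 138 reads (0.98, 0.54 to 1.42). Src, a kinase of the sealing zone, had 118, 178 and 962 reads (0.89, 0.55 to 1.24), and Car2, the carbonic anhydrase that supplies protons, had 1473, 1911 and 5835 (0.68, 0.58 to 0.78). Ckb, the creatine kinase that supplies the pump with ATP, had 1007, 1568 and 3029 reads (0.94, 0.82 to 1.06). Ctsk, the collagenase of the resorption pit, had 180, 171 and 1001 reads (0.23), with an interval of -0.084 to 0.54 that holds 0, and its mOC-ABs count was far above both. By contrast, 3 membrane proteins of acid secretion were lower in pOC-ABs. Tcirg1, the pump subunit of the ruffled border, had 3890, 2316 and 3041 reads (-0.45), Clcn7, the chloride channel beside it, 777, 366 and 587 (-0.79), and Ostm1, the partner of Clcn7, 322, 162 and 200 (-0.69). Cd9, a tetraspanin, was the effector below 0.5, with 1703, 581 and 869 reads and a log2 ratio of -1.25. Among the effectors with too few reads to be compared, Oscar, a costimulatory receptor, had 0, 7 and 49 reads, the gelatinase Mmp9 had 8, 17 and 107, and the integrin Itgb3 had 6, 3 and 0.

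The RANK pathway and its transcription factors stayed near even on balance. Of 31 listed genes 30 were compared, 1 was above 2 and none below 0.5, and the median log2 ratio was 0.0020, between -0.20 and 0.086 over the scalings. Fosl2, an AP-1 factor, was the gene above 2, with 1589, 2757 and 8427 reads (1.10, 1.01 to 1.19). Nfatc1, the master factor of osteoclast formation, had 2566, 2772 and 8463 reads (0.41, 0.33 to 0.49). Tnfrsf11a, the receptor of RANKL itself, was lower in pOC-ABs, with 657, 386 and 603 reads (-0.47, -0.65 to -0.28). Fos, which acts upstream of Nfatc1, had 1118, 562 and 363 reads (-0.69), and Mitf, a later partner of PU.1, had 736, 700 and 932 (0.23). Spi1, which encodes PU.1, had 2482, 2130 and 2693 reads (0.080, -0.0040 to 0.16).

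**Figure D2:**
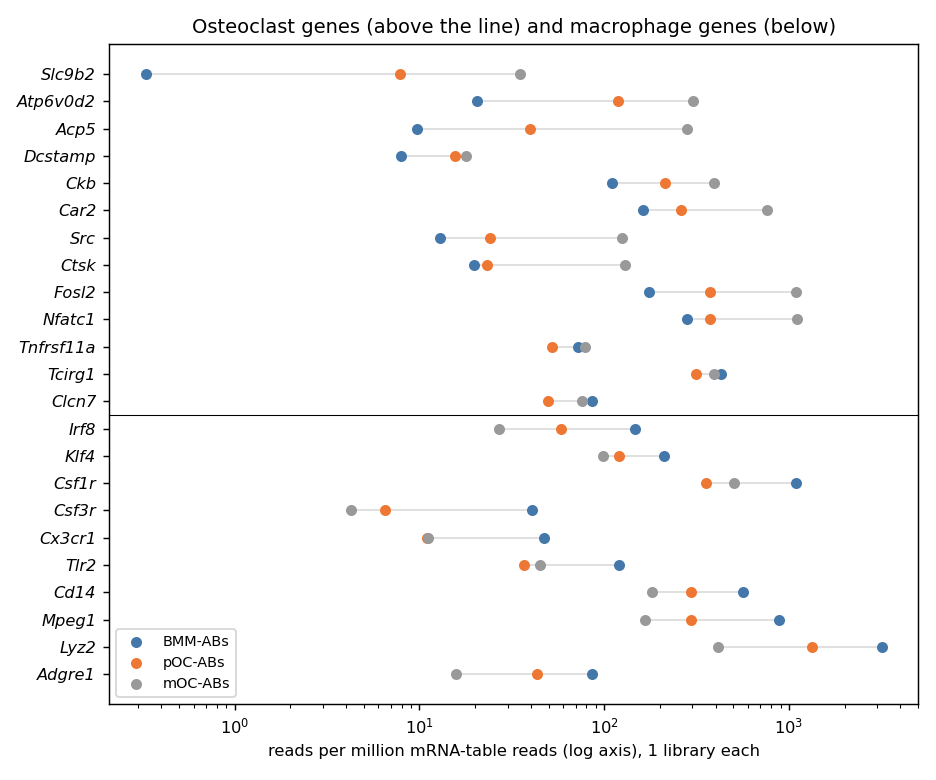
RPM on a log axis for 23 genes, with BMM-ABs in blue, pOC-ABs in orange and mOC-ABs in grey, 1 library each. Osteoclast genes stand above the horizontal line and macrophage genes below it. Slc9b2, Atp6v0d2 and Acp5 rank BMM-ABs, pOC-ABs, mOC-ABs from low to high, and the 10 macrophage genes drawn are highest in BMM-ABs. The genes drawn are a selection, and Clec4d and Rbpj, which were higher in pOC-ABs, are not among them.

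Macrophage factors and surface receptors were lower in pOC-ABs. Of the 17 compared factors that maintain macrophage identity or restrain osteoclast formation, 16 were below a log2 ratio of 0, 3 of them below a ratio of 0.5, with a median of -0.42. Csf1r, the M-CSF receptor, had 9870, 2640 and 3902 reads, was 3.03-fold lower in pOC-ABs and had a log2 ratio of -1.6 (-1.66 to -1.54). Reads of overlapping transcripts came to 13.1% of those of Csf1r, and with them added the log2 ratio was -1.47. Irf8, a repressor that RANKL signalling removes, had 1330, 431 and 207 reads (-1.32, -1.48 to -1.17), and Klf4, a monocyte factor, 1926, 882 and 754 (-0.83). Id3, the remaining gene below 0.5, had 57, 20 and 69 reads (-1.21, -2.02 to -0.45) and is uncertain, since overlapping transcripts held 149% as many. Rbpj, another repressor, was the single member above 0, with 2845, 2612 and 1867 reads (0.18).

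Of 20 macrophage surface, scavenger and pattern-recognition genes compared, 6 were below 0.5 and none above 2, with a median log2 ratio of -0.81. Cx3cr1, described below with the receptors, was the lowest of them. Lyz2, the lysozyme of macrophages, had 28844, 9854 and 3170 reads, 3170, 1334 and 411 RPM, a log2 ratio of -1.25 (-1.28 to -1.22), and its near-identical copy Lyz1, between which reads may be split, had 3986, 1507 and 325 (-1.10). Among the Toll-like receptors, Tlr2 had 1099, 273 and 346 reads (-1.71, -1.90 to -1.52), Tlr6, its partner, 108, 29 and 64 (-1.6), and Tlr9 of endosomes 219, 72 and 67 (-1.3). Tlr4, the receptor of lipopolysaccharide, had 187, 140 and 134 reads and an interval of -0.44 to 0.21 that holds 0, while Cd14, its co-receptor, had 5111, 2179 and 1398 (-0.93, -1.0 to -0.86). Cd68, a lysosomal glycoprotein used as a macrophage marker, was close to even, at 6638, 4794 and 5056 reads (-0.17). Clec4d, a C-type lectin, went the other way, with 250, 353 and 191 reads (0.80, 0.56 to 1.04). Mpeg1, which encodes the pore-forming protein perforin-2 and was named after its value was seen, had 8008, 2175 and 1282 reads (-1.58, -1.65 to -1.51).

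The receptors for chemokines and cytokines had the lowest median log2 ratio among the lists of at least 7 genes, -0.97. Of 19 genes compared, 9 were below 0.5 (background 4.8%), none was above 2, and 18 were below a log2 ratio of 0. All 19 encode a protein with a hydrophobic segment, a feature defined below with the lipid genes. Of all 3013 genes with such a segment 12.3% were below 0.5 and 72.6% below a log2 ratio of 0. Csf3r had 370, 48 and 33 reads and was 6.26-fold lower in pOC-ABs (-2.65, -3.11 to -2.21). Csf3r also marks the granulocyte lineage. Of the 18 genes listed for neutrophils and their precursors, Csf3r and the granulocyte factor Cebpe were compared, the latter with 96, 107 and 58 reads (0.46, 0.046 to 0.87), and Lcn2 had 5, 10 and 0 reads. The part of such cells in the difference was not tested. Cx3cr1, the fractalkine receptor of monocytes and osteoclast precursors, had 429, 81 and 86 reads (-2.10, -2.47 to -1.76), and overlapping transcripts held 11.8% as many reads. Il6ra, a chain of the interleukin-6 receptor, had 944, 245 and 366 reads (-1.65), and Cxcr4, the CXCL12 receptor, had 138, 44 and 29 (-1.35). Tnfrsf1b, a TNF receptor, had 703, 181 and 138 reads (-1.66), beside which overlapping transcripts held 32.2% as many. The remaining members below 0.5 were Il10ra (-1.21), Csf2rb (-1.12) and Tgfbr2 (-1.12), together with Ifngr1. Both chains of the interferon-gamma receptor were below 0, Ifngr1 with 280, 97 and 98 reads (-1.23) and Ifngr2 with 859, 597 and 883 (-0.22). Ccr1, the receptor of Ccl3 and Ccl9, was the member above 0, with 28, 38 and 161 reads and an interval of -0.00096 to 1.5. The ligands were less displaced. Of 13 chemokines and cytokines 2 were below 0.5, Cxcl2 with 673, 242 and 107 reads (-1.17) and Spp1, the matrix protein osteopontin, with 12438, 4804 and 8410 (-1.07), and the median was -0.17. Ccl9, a chemokine that osteoclasts make, had 1271, 1399 and 1918 reads (0.44), and Tnf 1529, 1013 and 645 (-0.29).

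The list of ITAM adaptors and co-receptors, which holds genes of the costimulatory arm of osteoclast formation and inhibitory receptors, was lower as a group. All 11 compared had a log2 ratio below 0, 3 of them below a ratio of 0.5, and the median was -0.87. As with the receptors above, all 11 encode a protein with a hydrophobic segment. Tyrobp, the adaptor DAP12 that osteoclast fusion requires, had 6433, 3230 and 3385 reads (-0.69, -0.75 to -0.63), Trem2, its partner receptor, 2823, 1116 and 1090 (-1.04, -1.14 to -0.94), and Fcer1g, the other adaptor, 1094, 592 and 458 (-0.59). Fcgr2b, an inhibitory Fc receptor, had 272, 83 and 42 reads (-1.41, -1.78 to -1.05). Lilrb4a, an inhibitory receptor, had 2251, 843 and 419 (-1.12), with 42.6% as many reads in overlapping transcripts. The 6 genes of the CD300 family, a list added after values were seen, held 4 members below 0.5 and a median of -1.6, with 104, 11 and 16 reads for Cd300ld4 (-2.94). Of 7 complement genes, all with such a segment, 3 were below 0.5. C5ar1, the C5a receptor, had 284, 56 and 7 reads (-2.04, -2.48 to -1.62), and C3, the central complement protein, 123, 38 and 15 (-1.39).

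Lysosomal enzymes, which both macrophages and osteoclasts use to digest what they take up or secrete, were lower in pOC-ABs. Of the 46 lysosomal hydrolases and membrane proteins compared beside the cathepsins, 43 had a log2 ratio below 0, 12 of them below a ratio of 0.5, none was above 2, and the median was -0.72. Psap, the precursor of the saposins, had 10719, 3636 and 5203 reads (-1.26, -1.31 to -1.20), and Laptm5 had 7419, 2610 and 3688 (-1.21). The heparan sulphate enzymes Hgsnat, Naglu and Sgsh were all below 0.5, with log2 ratios of -1.26, -1.27 and -1.35, and for Sgsh overlapping transcripts held 38.2% as many reads. Npc2, which hands cholesterol to the lysosomal membrane, was close to even, with 3285, 2875 and 2907 reads (0.11), whereas Npc1, which receives it, had 1032, 371 and 486 (-1.18), with 39.6% as many in overlapping transcripts. Of 12 cathepsins and legumain 4 were below 0.5 and 11 below 0, with a median of -0.86. Ctsb, the most abundant in reads, had 14727, 5252 and 6091 (-1.19, -1.23 to -1.14), and the aspartic protease Ctsd had 8259, 3908 and 4527 (-0.78). Ctsz had 5509, 2032 and 2170 reads (-1.14) and the asparaginyl protease Lgmn 4349, 1570 and 1491 (-1.17). Ctsk, given above, was the member above 0.

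The proton pump divided by position in the complex. The 8 V1 subunits, the soluble part that binds ATP, had a median log2 ratio of 0.47, with 7 of them above 0, from -0.069 for Atp6v1c1 to 0.75 for Atp6v1g1. Atp6v1a, the catalytic subunit, had 5739, 6529 and 9760 reads (0.49, 0.44 to 0.54). The 10 V0 and accessory subunits with an Atp6 symbol, of which most lie in the membrane, had a median of -0.51, with 7 of them below 0. Tcirg1, given above among the effectors and also lower in pOC-ABs, is not counted among them. Atp6v0c, which forms the proton-carrying ring, had 1395, 503 and 1369 reads (-1.17, -1.32 to -1.02), while Atp6v0d2 stood apart at 2.52. The grouping by position was made after values were seen.

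Genes of lipid handling were divided between membrane and soluble proteins in a like way. Of 27 genes of cholesterol synthesis and uptake 1 was above 2 and 4 were below 0.5. Among the 18 with a hydrophobic segment in their protein (a stretch of 19 residues with a mean Kyte-Doolittle hydropathy of at least 1.6) 15 were below a log2 ratio of 0 and their median was -0.61. Among the 9 without one 8 were above 0 and the median was 0.46. Sqle, squalene epoxidase, had 1512, 583 and 633 reads (-1.07, -1.21 to -0.94). By contrast, 4 soluble enzymes of the same pathway were higher. The isomerase Idi1 had 532, 972 and 502 reads (1.17, 1.02 to 1.33) and the synthase Hmgcs1 1772, 2033 and 1116 (0.50). Fdps, the enzyme that alendronate inhibits, had 1986, 2221 and 1510 reads (0.46) and the decarboxylase Mvd 1378, 1543 and 1092 (0.46). In the list of lipid efflux, uptake and storage 7 of 26 were below 0.5 and the median was -0.48. Abca1, the cholesterol exporter, had 435, 92 and 69 reads (-1.94, -2.28 to -1.61), and Abcg1, another exporter, 1767, 712 and 1245 (-1.01). Lpl, lipoprotein lipase, had 6530, 2419 and 3742 reads (-1.13), and Lrp1, a large endocytic receptor, 26893, 10367 and 15370 (-1.07). Fabp5, a soluble fatty acid carrier, had 849, 1332 and 860 reads (0.95).

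Among the genes of sugar metabolism several transporters were lower. The 4 genes below 0.5 among 25 of glycolysis and glucose uptake were all transporters. The glucose transporter Slc2a1 had 2936, 861 and 1358 reads (-1.47, -1.58 to -1.36), and its relatives Slc2a3 and Slc2a6 had 326, 129 and 192 (-1.04) and 892, 250 and 106 (-1.53). The lactate exporter Slc16a3 had 2489, 717 and 1073 reads (-1.49). Genes of the list with a hydrophobic segment had a median of -0.17 and those without one -0.092, with 8 of 11 and 10 of 14 below 0. Abundant enzymes were near even, among them Pkm with 53741, 38702 and 46396 reads (-0.17), Aldoa with 26248, 20931 and 22407 (-0.026) and Ldha with 13579, 12213 and 12967 (0.15). Gapdh, at 915, 470 and 456 reads (-0.66), has many near-identical pseudogenes and its count is uncertain. Of 140 genes named Slc outside the Slc25 family 33 were below 0.5, 3 were above 2 and the median log2 ratio was -0.60. The 35 Slc25 genes, which encode carriers of the mitochondrial inner membrane, had none past either limit and a median of 0.045. The division of the Slc genes was made after values were seen.

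Adhesion molecules and membrane proteases were lower too. Of 11 integrins 3 were below 0.5, and the median log2 ratio was -0.78. All 11, and all 14 tetraspanins given below, encode a protein with a hydrophobic segment. Of all genes with such a segment 12.3% were below 0.5 and 72.6% below a log2 ratio of 0. Itgb2, the common chain of the leukocyte integrins, had 2527, 1006 and 1379 reads (-1.03), the fibronectin receptor chain Itga5 1335, 477 and 615 (-1.18) and Itgb5 445, 124 and 128 (-1.54, -1.84 to -1.25). The chain with most reads, Itga4, had 16759, 7898 and 8255 (-0.78). Itgav, the chain that osteoclasts pair with Itgb3, had 392, 235 and 483 (-0.44). Of 8 metalloproteinases, ADAMs and inhibitors 3 were below 0.5, with 2386, 820 and 1121 reads for Adam8 (-1.24), 1987, 780 and 688 for Adam15 (-1.05) and 54, 7 and 6 for Adam4 (-2.65), and the median was -0.93. Among 14 tetraspanins, several of which mark extracellular vesicles, 13 were below a log2 ratio of 0, Cd9 was the member below 0.5, and Cd63 had 907, 425 and 632 reads (-0.79) and Cd81 303, 189 and 174 (-0.38). Of 14 genes that recognise or bridge dying cells 3 were below 0.5, which were Abca1, Lrp1 and Itgb5, and the median was -0.54. Anxa1 was their highest member, with 1063, 1449 and 1016 reads (0.75).

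The chaperones of the endoplasmic reticulum and those of the cytosol lay on opposite sides. Of 22 genes of the unfolded protein response and reticulum folding 18 were below 0, 1 below 0.5, and the median log2 ratio was -0.52. Hspa5, the chaperone BiP, had 3515, 1589 and 1797 reads (-0.84, -0.93 to -0.76), P4hb, a disulphide isomerase, 12658, 5078 and 6546 (-1.02), and Calr, calreticulin, 4088, 2433 and 3055 (-0.45). Of 19 cytosolic heat shock genes 16 were above 0, none was past either limit, and the median was 0.50. Hsp90aa1, the inducible HSP90, had 1947, 3117 and 2267 reads (0.98, 0.90 to 1.06) and Hsph1 696, 949 and 1182 (0.75), while Hsp90ab1, its constant form, had 24554, 20426 and 25716 (0.035).

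Nuclear genes of the respiratory chain had a median log2 ratio of 0.52, the highest of the lists as scaled here. Of 79 subunits compared 13 were above 2 (background 2.19%), none was below 0.5, and 72 were above a log2 ratio of 0. In the shortest length decile of all genes (204 to 1284 bases), which holds the list's median length, 56 of 1014 were above 2. Atp5s, a factor of the ATP synthase, had 24, 90 and 25 reads (2.21, 1.54 to 2.92). Ndufa12 of complex I had 82, 279 and 115 reads (2.07, 1.71 to 2.44), Uqcrb of complex III 351, 702 and 565 (1.3, 1.11 to 1.49). Cycs, the electron carrier cytochrome c that also starts caspase activation once released, had 225, 492 and 281 reads (1.43, 1.20 to 1.66). Abundant subunits were nearer to even, such as Atp5a1 with 8017, 5953 and 7787 reads (-0.13) and Cox4i1 with 3352, 2452 and 2894 (-0.15). The median transcript of the list had 908 bases against 3118 for all genes, and after each gene was set against the median of its length decile the list's median was 0.33, below the 0.42 of the cytosolic heat shock genes. With a minimum of 200 reads it was 0.45, also below the heat shock genes at 0.50. The 22 subunits with a hydrophobic segment had a median of 0.46, and 20 of them were above 0, whereas 72.6% of all genes with such a segment were below 0. The 23 genes of the tricarboxylic acid cycle had 1 member above 2, Dld with 565, 919 and 438 reads (1.0). Their median was 0.22, between 0.020 and 0.30 over the scalings. The 13 proteins encoded by mitochondrial DNA had a median of -0.016, between -0.21 and 0.068 over the scalings, with mt-Co1 at 120765, 79436 and 77386 reads (-0.30) and mt-Cytb at 9464, 7600 and 7516 (-0.016). Of these genes mt-Atp8 (1.47) and mt-Nd6 (-1.31) were past the limits, and both overlap another mitochondrial gene, so that their counts are uncertain.

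Machinery of protein synthesis and breakdown was slightly higher in pOC-ABs. Of 34 constitutive proteasome subunits 33 were above 0 and none was past a limit, with a median of 0.36. Psmc6 had 597, 946 and 554 reads (0.96, 0.82 to 1.12) and Psmd3, the member below 0, 1587, 973 and 1445 (-0.40). Of 83 cytosolic ribosomal protein genes 73 were above 0, 1 was above 2 and the median was 0.29, which was 0.043 after length was taken into account. Over the scalings this median lay between 0.095 and 0.38. Rpl15, the gene above 2, had 538, 1689 and 1773 reads (1.95), but on its transcripts of the protein_coding type alone the log2 ratio was -0.19, so that its direction rests on other transcripts. Rpl41 had 5952, 8949 and 7207 reads (0.89) and Rps14 8623, 5723 and 7409 (-0.29). Of 78 mitochondrial ribosomal proteins 68 were above 0 and 5 above 2, with a median of 0.29, or 0.16 after length was taken into account. Over the scalings their median lay between 0.092 and 0.37. The 55 translation factors had a median of 0.19, which was -0.012 when scaled to both tables, with 92919, 90936 and 112290 reads for Eef1a1 (0.27) and 80013, 53971 and 72864 for Eef2 (-0.27).

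Targets of p53 were higher in pOC-ABs on balance. Of 20 compared 14 were above 0, 2 above 2 and none below 0.5, with a median of 0.46. Ccng1 had 1001, 1925 and 934 reads (1.24, 1.13 to 1.36), Aen, an apoptosis-enhancing nuclease, 251, 560 and 574 (1.46, 1.24 to 1.68), Cdkn1a, the cell cycle inhibitor p21, 2983, 3765 and 1947 (0.64), and Bax, a pore former of the mitochondrial membrane, 964, 1200 and 966 (0.62). In the BCL2 family 1 of 15 was above 2 and 2 below 0.5. Bmf, a killer of that family, had 571, 202 and 581 reads (-1.20). Bid had 379, 751 and 736 (1.29) and Bcl2l2 418, 61 and 99 (-2.48), and both are uncertain, since overlapping transcripts held 116% and 119% as many reads. Of 26 caspases and effectors of AB formation 2 were above 2, Cycs and Casp1, the latter with 168, 283 and 119 reads (1.05, 0.77 to 1.34). Rock1, the kinase that drives blebbing, had 742, 789 and 594 reads (0.39), and Panx1, a channel that restrains AB formation, 158, 70 and 77 (-0.87). Plxnb2, which dying monocytes use to shed ABs, was the member below 0.5, with 8711, 2944 and 4508 reads (-1.26, -1.32 to -1.20).

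The integrated stress response stayed near even as a group, with a median log2 ratio of 0.033 over 38 genes, between -0.17 and 0.12 over the scalings. Cth, the enzyme that makes cysteine, was above 2, with 73, 231 and 29 reads (1.96, 1.58 to 2.36), and Asns had 1348, 2068 and 667 (0.92), whereas Atf4, the factor that drives the response, had 4145, 3398 and 1894 (0.014). Slc7a1 and Sel1l, both membrane proteins, were at the lower edge with log2 ratios of -1.0. Antioxidant genes were mildly higher as scaled here, 22 of 30 above 0 with a median of 0.24, between 0.038 and 0.32 over the scalings. Me1, malic enzyme, had 196, 435 and 782 reads (1.45, 1.20 to 1.70), the metallothionein Mt2 256, 464 and 516 (1.16) and Prdx1 3283, 4572 and 2821 (0.78). Fth1, ferritin heavy chain and among the 5 genes with most reads in pOC-ABs, had 34974, 35592 and 23479 reads (0.33). Of 63 cell cycle genes 48 were above 0 and 3 above 2, with a median of 0.22, between 0.020 and 0.30 over the scalings. Pcna, the sliding clamp of DNA replication, had 2198, 3090 and 2944 reads (0.79) and Mki67, the proliferation marker, 7513, 4394 and 3842 (-0.47).

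Immediate early genes and interferon targets were spread on both sides. Of 30 immediate early and AP-1 genes 2 were above 2, Fosl2 and Egr2, and 2 were below 0.5, Fosb and Egr3. Fosb had 225, 35 and 71 reads (-2.38, -2.94 to -1.87), Egr2 57, 109 and 133 (1.24) and Jun 3074, 2486 and 1112 (-0.0055). Of 40 interferon-stimulated genes 1 was above 2, Isg15 with 30, 62 and 23 reads (1.35, 0.70 to 2.03), and 1 was below 0.5, Cmpk2 with 117, 39 and 32 (-1.28), and the median was -0.033, between -0.23 and 0.051 over the scalings. Among 20 NF-kappaB targets Rel, a subunit of the factor itself, was above 2 with 291, 565 and 615 reads (1.26), though overlapping transcripts held 54.1% as many reads, and Nfkbia, its inhibitor, had 1291, 1431 and 1605 (0.45).

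Among the 13 osteoclast-derived coupling and angiogenic factors, 10 had a log2 ratio below 0, against 5483 of all 10166 genes. Of these 10, C3 (-1.39) and Sema4d had a ratio below 0.5, and 1 of the 13 was above 2. Vegfc, a lymphatic growth factor, had 10, 59 and 137 reads (2.86, 1.88 to 3.99). Sema4d, an osteoclast signal that restrains osteoblasts, had 1391, 470 and 1217 reads (-1.26, -1.42 to -1.11), and Pdgfb, a chemoattractant secreted by preosteoclasts, 696, 462 and 920 (-0.29, -0.46 to -0.12). Vegfa had 632, 317 and 365 reads (-0.69) and Tgfb1 2206, 1328 and 1550 (-0.43).

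Several small calcium-binding proteins were higher in pOC-ABs. Of 20 annexins, S100 proteins and galectins 3 were above 2, the S100 genes S100a4 with 4955, 8791 and 7623 reads (1.13, 1.08 to 1.18), S100a11 with 636, 1273 and 910 (1.3) and S100a13 with 89, 184 and 104 (1.35). Anxa5, whose protein binds the phosphatidylserine on ABs, had 5225, 6499 and 4897 reads (0.62), and Lgals3bp, a secreted glycoprotein, was the member below 0.5 with 1150, 363 and 322 (-1.36). Of 50 genes of actin and podosomes Tmsb10 was above 2, with 309, 686 and 218 reads (1.45, 1.26 to 1.65), none was below 0.5, and the median was 0.16, which was -0.036 when scaled to both tables. Actb had 13745, 15827 and 18970 reads (0.50), whereas Flna had 7796, 3842 and 3713 (-0.72) and Tln1 18184, 11019 and 11669 (-0.42). Of 40 Rab GTPases 4 were above 2. Rab11b of recycling endosomes had 248, 473 and 289 reads (1.23), and Rab15 had 6, 76 and 240 (3.96, 2.78 to 5.45). Rab8b had 659, 1070 and 688 reads (1.0) and Rab43 93, 386 and 137 (2.35). For Rab15, Rab8b and Rab43 overlapping transcripts held more than 10% as many reads, with which Rab43 came to -0.17.

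**Figure D3:**
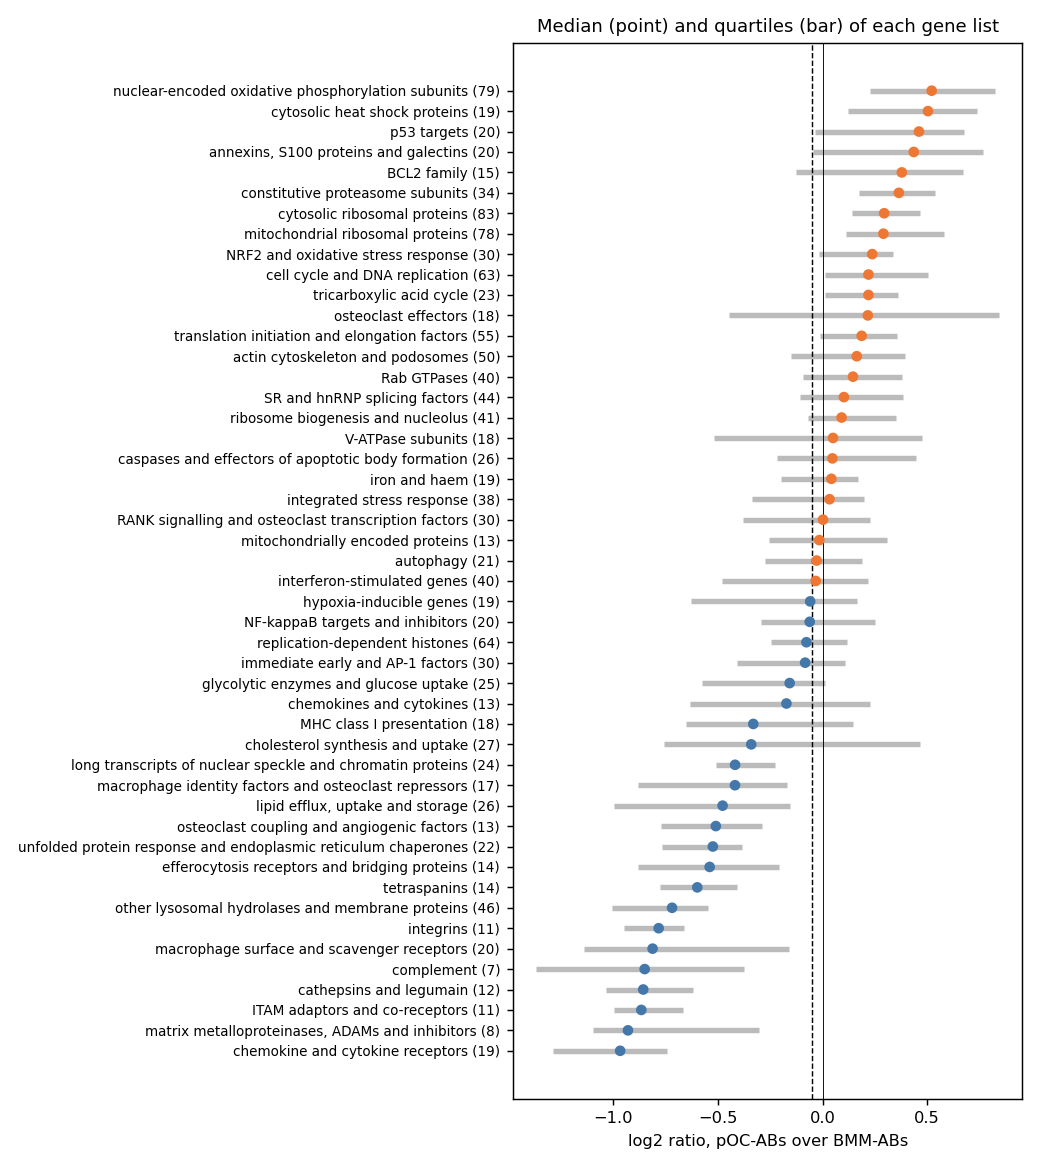
Median log2 ratio (point) and quartiles (bar) of pOC-ABs over BMM-ABs for 48 lists with at least 7 genes compared, with the number of genes in brackets. Lists added after values were seen are not drawn. The dashed line marks the median of all genes, -0.050. Respiratory chain subunits stand at the top (0.52) and chemokine and cytokine receptors at the bottom (-0.97).

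Genes below 0.5 often encoded a protein with a hydrophobic segment. No list was picked by this computed feature, but several lists hold mostly membrane proteins, and their genes are counted here again. All 19 chemokine and cytokine receptors, 11 ITAM adaptors and co-receptors, 11 integrins and 14 tetraspanins compared had the segment. So did 39 of the 46 lysosomal genes beside the cathepsins. Such a segment, as defined above, was found in the protein of 3013 of the 10121 genes with a usable reading frame, which takes in many membrane and secreted proteins, some soluble ones such as Eef2 and Pkm, and misses others such as Lyz2 and Ctsb. Of the 483 genes below 0.5 with a reading frame 371 had such a segment (76.8%), against 29.8% of all and 41 of 218 genes above 2 (18.8%). A ratio below 0.5 was seen in 12.3% of genes with the segment and in 1.58% of the 7108 without it, and a ratio above 2 in 1.36% and 2.49%. The median log2 ratios were -0.33 and 0.039. Among genes with at most 10% overlapping reads the medians were -0.34 and 0.042. Longer transcripts had lower ratios, with a median of 0.26 in the shortest length decile and -0.21 in the longest, and a Spearman correlation of -0.24 across 10137 genes, which are not independent replicates. In each of the 10 deciles the genes with the segment had the lower median, from 0.042 against 0.30 in the shortest to -0.40 against -0.12 in the longest. Within single lists the division was not general. Among the lysosomal proteins the medians with and without the segment were -0.73 and -0.70, and among the macrophage surface genes -0.59 and -1.02. In the tricarboxylic acid cycle they were 0.32 and 0.14, among the interferon-stimulated genes 0.11 and -0.089 and among the p53 targets 0.58 and 0.42. Of the 16 macrophage identity factors without the segment 15 were below 0. The list of 24 long transcripts, mostly of chromatin and nuclear speckle proteins, had a median of -0.42. This was -0.48 for the 8 with the segment and -0.34 for the 16 without it. The lowest of this list was Ahnak, a giant scaffold protein with no such segment, with 68509, 25416 and 28746 reads (-1.13, -1.15 to -1.11).

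**Figure D4:**
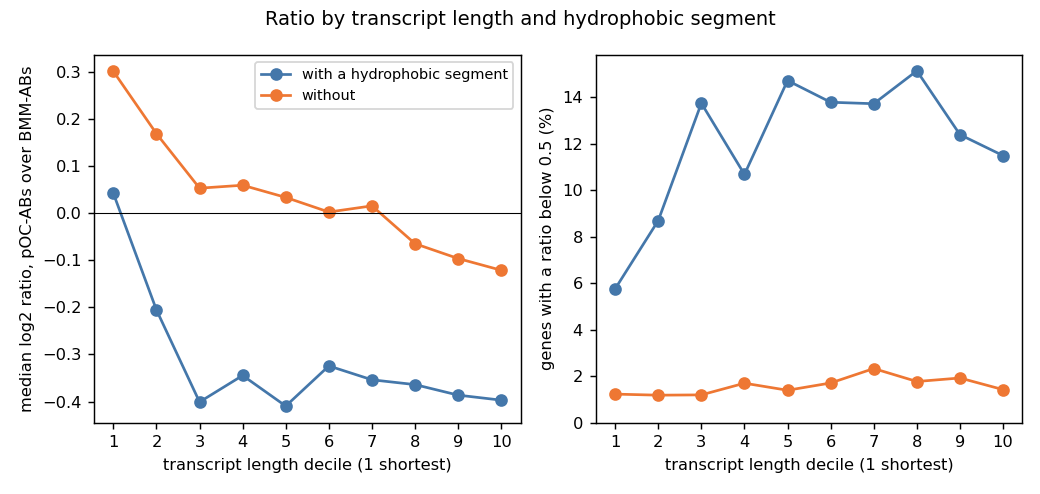
Left, median log2 ratio of pOC-ABs over BMM-ABs in 10 classes of transcript length, for genes with (blue) and without (orange) a hydrophobic segment. Right, the share of genes with a ratio below 0.5, which was 5.76% to 15.1% with the segment and 1.19% to 2.33% without it.

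The genes with the most extreme ratios were often genes that share their locus. Each gene was ranked by the bound of its interval nearest to 0, and the reads of every transcript overlapping its exons on either strand were then added to give a locus sum. Strand was not stated for the counting. Of the 15 highest genes 10 stayed above 2 on the locus sum, and of the 15 lowest 8 stayed below 0.5. Over all genes past the limits this held for 169 of 223 and 394 of 488. Among the 7777 genes with at most 10% overlapping reads 149 were above 2 (1.92%) and 357 below 0.5 (4.59%).

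In these loci the ratio was nearer to 0 once overlapping reads were added. Gm49368 had 924 reads in BMM-ABs and 0 in pOC-ABs. With 3 reads put in place of 0 it was 250-fold lower, and the interval of its log2 ratio ended at -7.66. Itgam, which it overlaps, had 1292, 630 and 180 (-0.74), and the locus of Gm49368 had a log2 ratio of -1.52. Ube2v1 had 83, 720 and 99 reads and the readthrough gene Gm20431 1218, 64 and 942, with log2 ratios of 3.42 and -3.95, while the locus of Ube2v1 was at -0.43. Hist2h2aa1, a histone gene with near-identical copies, had 4641, 11 and 6450 reads (-8.42), and the overlapping Gm20634 had 1, 6065 and 48, which turned the locus to 0.70. Nnt has 2 gene entries, of which the one on chromosome 13 from 119335528 to 119408952 had 394 reads in BMM-ABs and 0 in pOC-ABs, and the locus came to -0.69. Gm45717 (5, 1010 and 0 reads, beside Ifitm2) and Gm20716 (0, 155 and 113, beside Adnp) had loci at 0.45 and -0.037, and Gm42715 (1102, 3 and 17, beside Srcap) and Gm49361 (110, 0 and 0, beside Xpo4) at -0.65 and -0.011. Rnf24, Sept2, Cpt1b, Fgf11 and Bcl2l2 moved towards 0 as well, to 0.93, 0.51, -0.95, -0.064 and -1.40. The size of each ratio in this paragraph is therefore uncertain. The direction is uncertain as well for Ube2v1 and Hist2h2aa1, which turned, and for Gm20716, Gm49361 and Fgf11, whose locus intervals hold 0.

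Other extreme genes stayed past the limit on the locus sum. That sum holds overlapping transcripts only, so that it cannot show reads assigned to similar sequences elsewhere in the genome. Gstt1, a glutathione transferase, had 1, 50 and 58 reads (5.94, 3.40 to 11.28), and Arl4a, a small GTPase, 3, 89 and 45 (5.19, 3.60 to 7.5). Dmpk, a kinase, had 45, 225 and 517 reads (2.62, 2.16 to 3.12), and the protease inhibitor Serpinb6b 29, 146 and 365 (2.63, 2.05 to 3.26). Srgn, the proteoglycan of secretory granules, had 155, 459 and 306 (1.87, 1.6 to 2.14). All 5 were lowest in BMM-ABs. Sumo2, a ubiquitin-like modifier, had 16, 67 and 8 reads (2.37, 1.56 to 3.25) and was highest in pOC-ABs. Hexim1, an inhibitor of transcription elongation, had 0, 1021 and 0 reads and its locus 38 and 1043 in BMM-ABs and pOC-ABs. Sdhaf1 and Mars2 had 0 reads in BMM-ABs beside 181 and 152 in pOC-ABs. With 3 reads put in place of 0 the folds of these 3 genes were 419, 74.3 and 62.4. The intervals of their log2 ratios began at 8.41, 5.90 and 5.65, although on the locus sum the log2 ratios were 5.08, 3.20 and 3.39. Each of these 3 genes has 1 listed transcript, and their ratios are uncertain. On the lower side L1cam, an adhesion molecule, had 337, 58 and 44 reads (-2.24, -2.67 to -1.83), and Cd28, a receptor best known from T cells, 113, 18 and 21 (-2.35). Slc36a1, a lysosomal amino acid transporter, had 495, 94 and 82 reads (-2.10), and Tcn2, the carrier of cobalamin, 175, 30 and 27 (-2.24). Tram2 had 224, 37 and 115 reads (-2.30) and Trp53i11 201, 27 and 93 (-2.60). Atxn1l had 1203, 53 and 855 reads (-4.20, -4.63 to -3.81), Mcts2 57, 4 and 20 (-3.53, -5.46 to -2.10), Jrkl 101, 0 and 0 and Kbtbd7 143, 0 and 0. With 3 reads put in place of 0 Jrkl and Kbtbd7 were 27.3-fold and 38.7-fold lower in pOC-ABs. The intervals of their log2 ratios ended at -4.45 and -4.96, and the locus of Kbtbd7 came to -2.51. Jrkl and Kbtbd7 also have 1 listed transcript each, and their ratios are uncertain. Hist4h4 (470, 3068 and 2832 reads, 3.01) and Hist1h2bq (2808, 177 and 1813, -3.69) belong to families of near-identical copies and are uncertain, and the 64 replication-dependent histones together had a median of -0.077, between -0.28 and 0.0065 over the scalings.

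**Figure D5:**
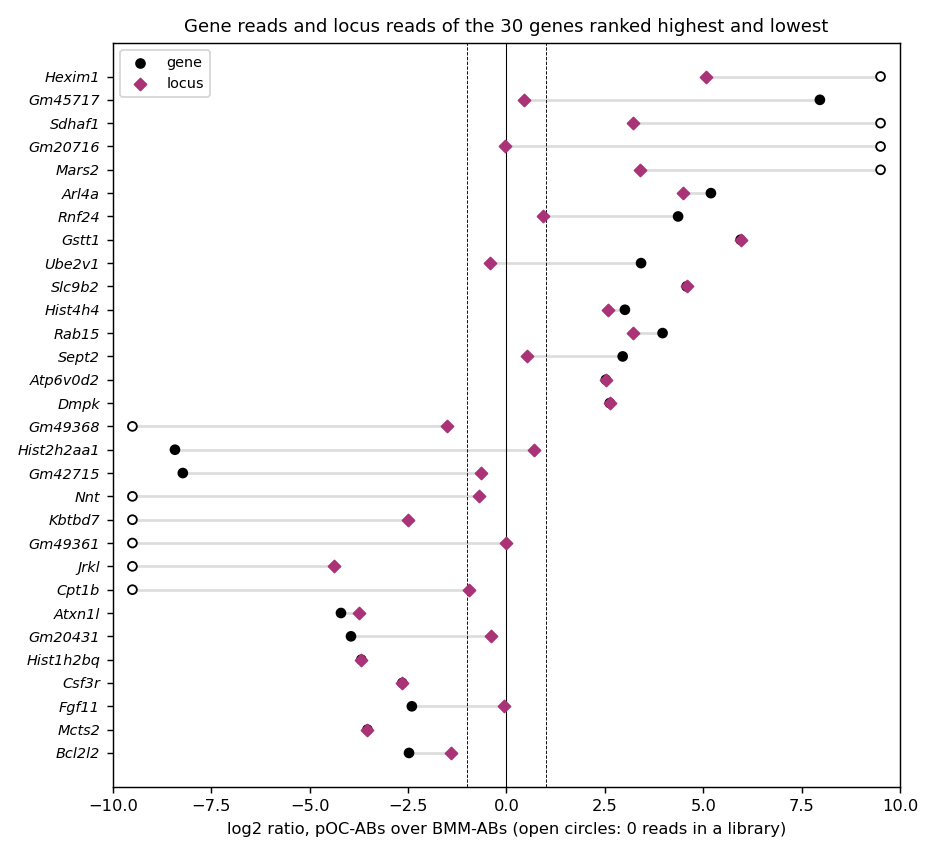
Log2 ratio of pOC-ABs over BMM-ABs for the 15 highest and 15 lowest genes (black circles) and for their loci with all overlapping transcripts added (purple diamonds). Open circles, drawn at the edge, stand for genes at 0 reads in a library, and dashed lines mark a ratio of 2 and of 0.5. The diamonds of Gm20716, Gm49361, Fgf11 and Ube2v1 lie near 0, while those of Slc9b2, Atp6v0d2, Gstt1 and Csf3r cover their circles.

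The libraries also differed in the classes of RNA they held. Protein-coding genes held 89.9% of the mRNA-table reads in BMM-ABs and 84.9% in pOC-ABs, and mitochondrially encoded genes 2.90% and 5.76%. The mitochondrial ribosomal RNAs mt-Rnr1 and mt-Rnr2 accounted for 0.767% and 3.88% (1.15% in mOC-ABs), and the 13 mitochondrial protein genes for 2.13% and 1.87%. Transcripts with a retained intron held 5.22% and 4.21%, and processed pseudogenes 8.22% and 9.37%.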

How the data were processed

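RNA of apoptotic bodies (ABs) was measured in 3 libraries, 1 per group (BMM-ABs, pOC-ABs, mOC-ABs), so that no group had a replicate. Per the study's methods, polyadenylated RNA was captured on poly-T beads and sequenced in pairs on an Illumina NovaSeq, and the submitters' processing notes name FastQC, HISAT2 and StringTie without versions. The authors deposited read counts and FPKM for each transcript, in an mRNA and an lncRNA table. The strand setting of the counting is not given in the sources used here. The columns are headed by hours of RANKL, and 0 h, 24 h and 72 h were matched to BMM-ABs, pOC-ABs and mOC-ABs through the labels and the study's methods. The number of per-sample columns left unused was 0. The deposited FPKM values were made by the authors by dividing counts by transcript length and by the column's total, and they served only as an alternative.

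Counts were summed over the transcripts of each protein-coding gene by the transcript identifiers of GENCODE M21, which held 56440 of the 56651 listed transcripts, and 211 were left out of the genes. Genes with at least 50 reads over BMM-ABs and pOC-ABs were compared, and 2242 genes had 49 or fewer. The median gene compared had 675 reads, and the genes compared held 89.7% and 84.7% of the mRNA-table reads of BMM-ABs and pOC-ABs. Reads were scaled to the summed counts of each mRNA-table column. The 95% interval of a ratio is exact and given the summed reads of a gene. Past the limit means a ratio above 2 or below 0.5. Locus sums added the reads of all transcripts of either table whose exons overlap the gene on either strand. Transcript length is that of the longest protein_coding transcript, and the Kyte-Doolittle hydropathy was averaged over 19 residues of its protein.

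The gene lists, the members and the tests were chosen with earlier results of these data known. The genes named are the 15 highest and 15 lowest by the bound of the interval nearest to 0, the same among genes with at most 10% overlapping reads, the 5 with the most reads in each library, lineage markers, and up to 6 members of each list past a limit or most abundant. Other scalings, minimum reads, transcript sets, FPKM on a log2 scale with a pseudocount of 1 or 0.1, and other limits were tried. The scripts were tested on simulated data. Some genes are not reported here. Python 3.11.15, pandas 2.3.3, NumPy 2.4.6, SciPy 1.17.1, pyranges 0.1.4, Biopython 1.88, matplotlib 3.10.9, R 4.3.3 and edgeR 4.0.16 (trimmed mean of M-values factors only) were used.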

Additional observations from a re-analysis of the deposited data

How the results depend on the processing

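The counts of genes past a limit moved with the scaling and the limit, while 223 genes were higher and 488 lower in pOC-ABs as reported. Scaling to both tables gave 128 and 843. A minimum of 1 read gave 757 and 1129 of 12303 genes, and a minimum of 200 reads gave 136 higher genes. Transcripts of the protein_coding type alone gave 435 higher genes, and FPKM with a pseudocount of 1 gave 301 lower genes. A limit of 1.5-fold gave 1005 and 1492, a limit of 3-fold 43 and 97, and the whole interval past the limit 76 and 204. Scaling to the genes compared gave 325 and 369 and the upper quartile 291 and 401. The medians of the translation factors and of the actin and podosome genes turned to -0.012 and -0.036 when scaled to both tables. Further medians changed sign over the scalings. Among them were the Rab GTPases (-0.054 to 0.23), the proton pump subunits together without Tcirg1 (-0.15 to 0.13) and the caspases and effectors of AB formation (-0.15 to 0.13). The NF-kappaB targets (-0.26 to 0.022), immediate early and AP-1 genes (-0.28 to 0.00049), hypoxia-inducible genes (-0.26 to 0.024) and autophagy genes (-0.23 to 0.055) did so too. On transcripts of the protein_coding type alone Rpl15 turned to -0.19, and on the locus sum Ube2v1 turned to -0.43 and Hist2h2aa1 to 0.70. The cause of these changes was not tested beyond what each setting itself alters. With 1 library per group no replicate could be left out. No paired analysis was possible because each group has 1 library and no result comes from a test.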

Other observations

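Several further lists had few genes past a limit. Of 18 genes of MHC class I presentation 1 was below 0.5, Tap2, a peptide transporter, with 191, 60 and 74 reads (-1.37), given as above with mOC-ABs last and the log2 ratio in parentheses, and the median was -0.33. The 4 genes of MHC class II presentation compared had a median of -0.45 and none was past a limit. The 19 genes of iron and haem had none past a limit and a median of 0.042, between -0.16 and 0.13 over the scalings. Of 19 hypoxia-inducible genes 2 were below 0.5, Slc2a1 and the prolyl hydroxylase P4ha1 (1131, 450 and 576 reads, -1.03), and of 21 autophagy genes Atg12 was below it (239, 84 and 111 reads, -1.21), with overlapping transcripts at 126% of its reads. The 44 SR and hnRNP splicing factors had none past a limit and a median of 0.10, between -0.097 and 0.19 over the scalings. Of 41 genes of ribosome biogenesis Nop10, a part of the pseudouridylation complex, was above 2, with 233, 393 and 294 reads (1.06), and the median of 0.091 lay between -0.11 and 0.17 over the scalings.

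Further families were picked by symbol after values were seen. The 23 small nuclear ribonucleoprotein genes and the 17 protein phosphatase and 14-3-3 genes had medians of 0.29 and 0.37, with none past a limit. Of 30 ubiquitin-conjugating enzymes 2 were above 2, and the median was 0.35. Of 135 genes named Tmem, for transmembrane proteins, 18 were below 0.5, 1 was above 2, and the median was -0.32. Of 272 genes named Zfp, for zinc finger proteins, 7 were above 2 and 9 below 0.5, with a median of -0.11.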
